A study of Mus musculus with 12 samples.

Results

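The 10 genes described here code for enzymes of prostaglandin and leukotriene metabolism and for 1 protein that assists them (*Alox5ap*). They are *Ptgs1*, *Ptgs2*, *Ptges*, *Hpgds*, *Hpgd*, *Alox5*, *Alox5ap*, *Lta4h*, *Ltc4s* and *Alox15*. They were chosen by name from the 54532 genes of the table, and 9 of the 10 had enough reads to be tested. The data are 12 RNA-seq libraries of bone marrow cells from C57BL/6 mice of wild-type genotype, kept for 5 days in medium with GM-CSF and IL-6, cytokines that drive the formation of myeloid cells. In 4 libraries the cells had received the vehicle DMSO (0.1 in the labels, which give no unit). The cells of 4 other libraries had received 10 µM indole-3-propionic acid (IPA), a product that gut bacteria make from tryptophan, and those of the remaining 4 had received 50 µM IPA. Agents were renewed at day 3, when the medium was changed. The labels give no age of the mice, and they do not say whether the libraries of a group came from separate mice or cultures. The question was how IPA at either dose changed the RNA of these genes in developing myeloid cells.

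Both families of lipid mediators are made from arachidonic acid, which phospholipases cut from membranes. Cyclooxygenases, coded by *Ptgs1* and *Ptgs2*, turn it into prostaglandin H2, from which terminal synthases make single prostaglandins, and 5-lipoxygenase starts the separate route to leukotrienes. *Ptgs1* is known as the cyclooxygenase that many cells hold at rest, and *Ptgs2* as the one that inflammatory stimuli induce. In bone marrow and blood, neutrophils, monocytes, macrophages, mast cells, eosinophils and platelets are known sources of these lipids.

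Each library held 20451312 to 28038612 counted reads. Expression is given as CPM, read counts scaled to a common library size by TMM over the 12 libraries, with the mean and SD of the 4 libraries of a group. The groups were compared in 3 pairs by edgeR's quasi-likelihood test, and a gene was called at an adjusted p under 0.05, with adjustment over all 14894 genes tested. Vehicle replicate 4 lay farther from the other libraries of its group (chi-square per degree of freedom of 18.7 to 60.2 over genes, against 5.01 to 26.9 in the other pairs within groups). No library was a copy of another. Neutrophil genes such as *S100a8* and *Ngp* and macrophage genes such as *Csf1r* and *Adgre1* were read in every library, and so were most markers of eosinophils, basophils and megakaryocytes.

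At 50 µM IPA, the RNA of both cyclooxygenases changed, in opposite directions. *Ptgs1* and *Alox15*, which codes for a lipoxygenase that adds oxygen at carbons other than that used by 5-lipoxygenase, were higher than with vehicle, and *Ptgs2* was lower. The same 3 genes were called against 10 µM, and the 6 other tested members passed the test in no comparison. At 10 µM none of the 9 was called against vehicle. The comparisons share their groups, so the counts are not independent of each other. In such cultures the paper reports slightly lower cell viability at the higher dose, which it calls supraphysiological. For that reason its authors centred their own RNA-seq analysis on the lower dose. The part of lower viability in the values at 50 µM was not tested.

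*Ptgs1* (ENSMUSG00000047250, GRCm38 chr2:36230426-36252272, plus strand) and *Ptgs2* (ENSMUSG00000032487, chr1:150100031-150108227, plus strand) lie on different chromosomes. The 120 bases before the start of each gene are shown because these were the 2 prostaglandin genes whose RNA moved apart. They were taken from RefSeq (GRCm38.p6, plus strand), chr2:36230306-36230425 for *Ptgs1* and chr1:150099911-150100030 for *Ptgs2*, and capitals mark the letters TTGCGCAA, a palindrome of the kind bound by C/EBP factors.
Ptgs1: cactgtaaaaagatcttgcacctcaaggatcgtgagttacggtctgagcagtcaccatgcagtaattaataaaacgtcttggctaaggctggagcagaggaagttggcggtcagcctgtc
Ptgs2: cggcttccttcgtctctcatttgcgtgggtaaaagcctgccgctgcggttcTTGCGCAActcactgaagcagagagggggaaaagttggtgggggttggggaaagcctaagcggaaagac
The *Ptgs2* stretch holds 7 CpG at 56.7% GC and the *Ptgs1* stretch 4 CpG at 48.3% GC. TTGCGCAA, searched on both strands after these sequences had been seen, begins 69 bases before the start of *Ptgs2*, and 0.164% of 32851 promoters of 250 bases before the start held it. The promoters of 8 of the 10 genes were searched, those of *Alox5ap* and *Alox15* were not analysed here, and *Ptgs2* was the one of the 8 with a match. Starts were those of RefSeq. The 120 bases before the start lie inside the gene span given below for *Ptges* (chr2:30903298-30903417) and *Hpgds* (chr6:65144731-65144850). The other motifs searched on both strands were the TATA box TATAAA, held by 12.4% of the promoters, the cyclic AMP element TGACGTCA, held by 1.55%, the AP-1 element TGACTCA, held by 4.46%, and the STAT element TTCNNNGAA, held by 7.02%. None of the 8 promoters had a match to any of these. Such matches describe letters and are no evidence of binding.

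*Ptgs1*, which codes for cyclooxygenase 1, had 170, 172, 157 and 160 CPM with vehicle, 180, 182, 164 and 159 CPM at 10 µM, and 301, 320, 311 and 293 CPM at 50 µM. Every library at 50 µM lay above every other library, while those of the other groups overlapped. The mean rose from 165 ± 7.42 CPM (SD, n = 4) to 306 ± 11.4 CPM (n = 4), a 1.87-fold difference with a 95% interval of 1.69 to 2.06 (log2 fold change 0.90, SE 0.0662, adjusted p = 3.22e-06). By p it ranked 16 of all genes tested. Against 10 µM, the difference was 1.79-fold (log2 fold change 0.84, adjusted p = 5.21e-07). Between 10 µM and vehicle the log2 fold change was 0.06, with an interval of -0.09 to 0.20 (adjusted p = 0.901). A gene on the opposite strand, Gm43621, shares 148 of the 3884 exon bases of *Ptgs1* and had 9 to 59 counts, against 3480 to 8727 for *Ptgs1*.

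*Ptgs2*, which codes for cyclooxygenase 2, was read at a far lower level, with 103 to 380 counts per library. Its values were 10.2, 14.1, 11.9 and 10.5 CPM with vehicle, 7.78, 10.2, 10.2 and 9.43 CPM at 10 µM, and 5.03, 6.19, 5.43 and 4.99 CPM at 50 µM. The 4 libraries at 50 µM lay below all others, and those at 10 µM overlapped with vehicle. The mean fell from 11.7 ± 1.77 CPM (n = 4) to 5.41 ± 0.555 CPM (n = 4) at 50 µM, a 2.14-fold difference (log2 fold change -1.10, interval -1.40 to -0.80, adjusted p = 0.000217). Against 10 µM, with a mean of 9.41 ± 1.15 CPM, the log2 fold change was -0.79 (interval -1.08 to -0.50, adjusted p = 0.00114). At 10 µM against vehicle it was -0.31 (interval -0.61 to -0.02), with an unadjusted p = 0.0386 and an adjusted p = 0.513 by edgeR, so the gene was not called.

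**Figure D1:**
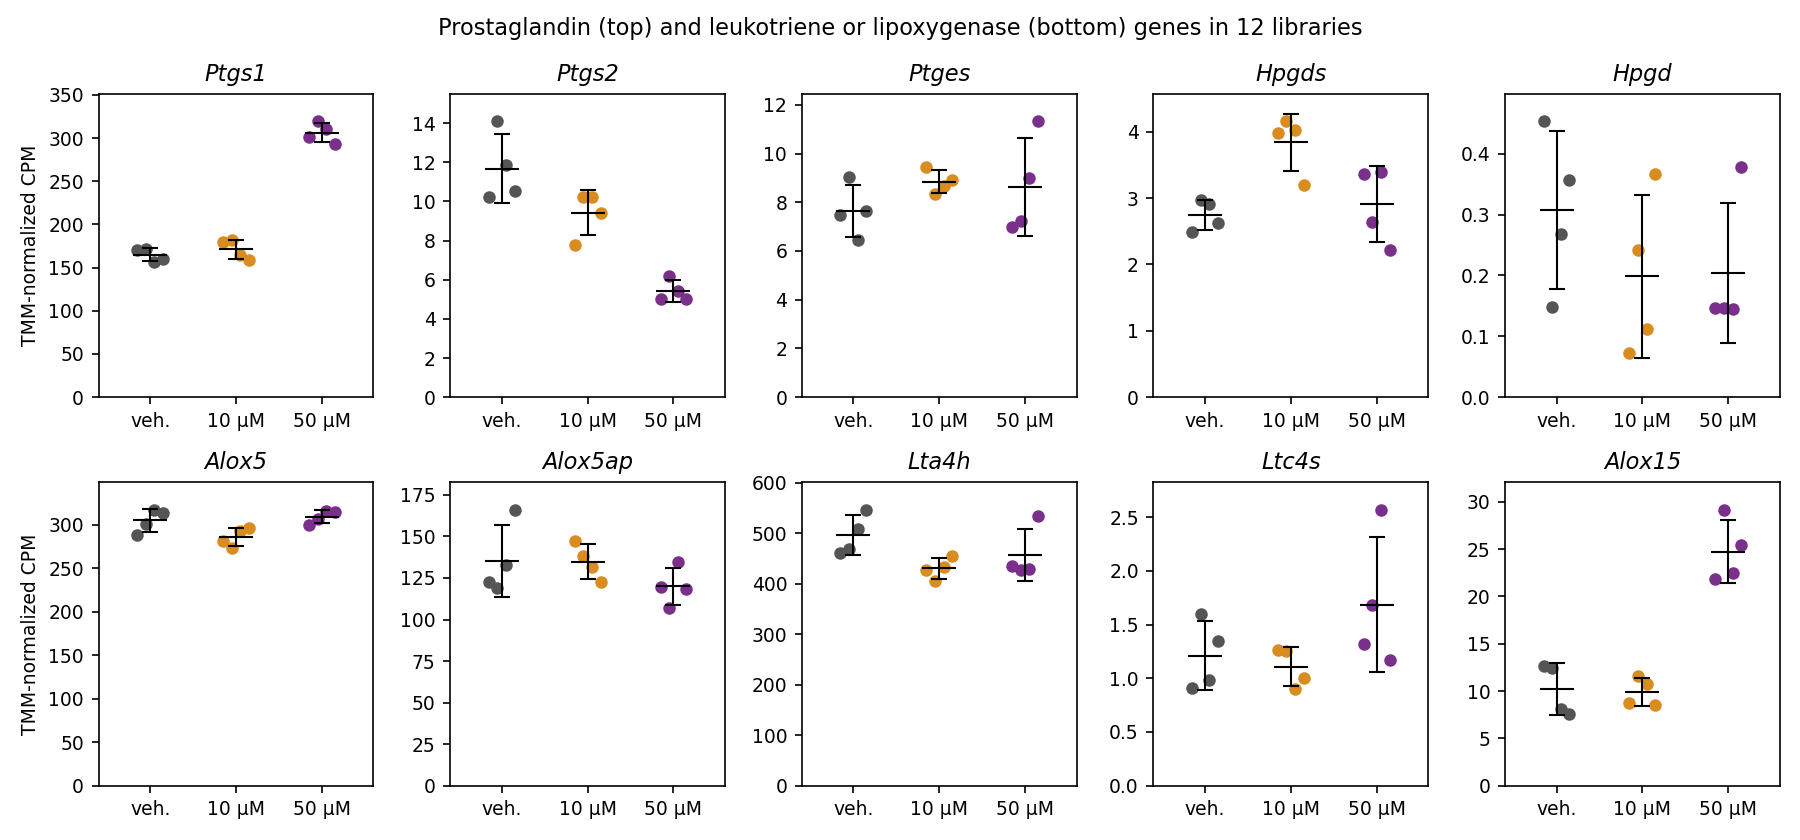
CPM (linear axes from 0, 1 panel per gene) of the 10 genes in each library, with points for libraries and bars for the mean and SD of the 4 libraries of a group. The 4 libraries at 50 µM stand apart from all others in *Ptgs1* (293 to 320 CPM), *Alox15* (21.9 to 29.2 CPM) and *Ptgs2* (4.99 to 6.19 CPM).

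Per length of exon, as CPM per kilobase (RPKM), *Ptgs2* made up 5.66 ± 0.743% of the reads of both cyclooxygenase genes with vehicle, 4.47 ± 0.647% at 10 µM and 1.47 ± 0.0980% at 50 µM (SD, n = 4 each). The ratio of *Ptgs1* to *Ptgs2* was 14.4 to 19.6 in the vehicle libraries, 18.9 to 27.2 at 10 µM and 60.7 to 70.2 at 50 µM. The log2 ratio of *Ptgs2* over *Ptgs1* was lower by 1.99 at 50 µM than with vehicle, with means of -6.06 ± 0.0939 and -4.07 ± 0.201 (exact permutation test, two-sided, p = 0.0286, adjusted p = 0.0857 over 12 tests of ratios). For 4 libraries against 4, 0.0286 is the smallest p that this test allows, and no ratio passed after adjustment. Against 10 µM the difference was -1.63 (exact permutation p = 0.0286, adjusted 0.0857), and between 10 µM and vehicle it was -0.36 (exact permutation p = 0.0571, adjusted 0.137).

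Behind the cyclooxygenases, *Ptges* (GRCm38 chr2:30889471-30929863, minus strand) codes for the inducible synthase of prostaglandin E2 that sits in the membrane. It had 7.49, 9.02, 6.45 and 7.63 CPM with vehicle, 9.45, 8.32, 8.69 and 8.92 CPM at 10 µM, and 6.98, 7.25, 8.98 and 11.3 CPM at 50 µM. All 3 groups overlapped. The log2 fold change was 0.21 at 10 µM (interval -0.06 to 0.48, adjusted p = 0.712), 0.18 at 50 µM (interval -0.18 to 0.54, adjusted p = 0.524) and -0.03 between the doses (interval -0.35 to 0.29, adjusted p = 0.917). The widest of these intervals leaves room for a rise of up to 1.46-fold at 50 µM.

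*Hpgds* (chr6:65117293-65144908, minus strand) codes for the synthase of prostaglandin D2 of blood cells, known from mast cells and megakaryocytes. It had 2.50, 2.97, 2.91 and 2.62 CPM with vehicle, 3.98, 4.16, 4.02 and 3.20 CPM at 10 µM, and 3.37, 2.64, 3.40 and 2.22 CPM at 50 µM, from 53 to 110 counts. Every library at 10 µM lay above every vehicle library, and those at 50 µM overlapped with both groups. At 10 µM the log2 fold change was 0.48 (interval 0.12 to 0.85) with an unadjusted p = 0.0136, but the adjusted p was 0.356 by edgeR and the gene was not called. At 50 µM it was 0.08 against vehicle (interval -0.36 to 0.53, adjusted p = 0.838) and -0.41 against 10 µM (interval -0.83 to 0.02, adjusted p = 0.187).

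*Hpgd* (chr8:56294585-56321043, plus strand), which codes for the dehydrogenase that inactivates prostaglandins, had 2 to 12 counts per library and was not tested. With vehicle it had 12, 4, 6 and 9 counts, at 10 µM 2, 5, 3 and 8 counts, and at 50 µM 3, 4, 3 and 9 counts. The groups overlapped, and its reads were too few for it to pass the filter on low values.

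On the leukotriene side, *Alox5* (chr6:116410077-116461178, minus strand), which codes for 5-lipoxygenase, was among the most abundant members. It had 288, 301, 317 and 313 CPM with vehicle, 281, 273, 293 and 296 CPM at 10 µM, and 299, 307, 316 and 314 CPM at 50 µM. Each library at 50 µM lay above each at 10 µM, and vehicle overlapped with both. The log2 fold change was 0.03 at 50 µM against vehicle (interval -0.11 to 0.17, adjusted p = 0.828), -0.09 at 10 µM (interval -0.22 to 0.04, adjusted p = 0.746) and 0.12 between the doses (adjusted p = 0.188).

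*Alox5ap* (chr5:149264767-149288153, plus strand) codes for the membrane protein that presents arachidonic acid to 5-lipoxygenase. Its values were 122, 119, 133 and 166 CPM with vehicle, 147, 138, 131 and 123 CPM at 10 µM, and 120, 107, 135 and 118 CPM at 50 µM. The groups overlapped, with vehicle replicate 4 the highest of the 12 libraries. The log2 fold change was -0.17 at 50 µM against vehicle (interval -0.40 to 0.07, adjusted p = 0.353). At 10 µM the interval ran from -0.23 to 0.22 around a value near 0 (adjusted p = 0.998), and between the doses the adjusted p was 0.171. The antisense gene Gm19719 shares 189 of the 1420 exon bases of *Alox5ap* and had 21 to 96 counts, against 2453 to 4182 for *Alox5ap*.

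*Lta4h* (chr10:93453411-93484875, plus strand), which codes for the hydrolase that makes leukotriene B4, a strong attractant of neutrophils, had 462, 469, 508 and 547 CPM with vehicle. It had 428, 404, 432 and 456 CPM at 10 µM and 436, 427, 429 and 533 CPM at 50 µM. All 4 libraries at 10 µM lay below all vehicle libraries, while replicate 4 at 50 µM lay within the vehicle range, above the rest of its group. At 10 µM the log2 fold change was -0.21 (interval -0.36 to -0.05) with an unadjusted p = 0.0120, and the adjusted p of 0.343 by edgeR missed the threshold. At 50 µM it was -0.11 against vehicle (interval -0.31 to 0.08, adjusted p = 0.445) and 0.09 against 10 µM (adjusted p = 0.476).

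*Ltc4s* (chr11:50236461-50238616, minus strand) codes for the synthase that joins glutathione to leukotriene A4 and so starts the cysteinyl leukotrienes. It had 22 to 53 counts per library, with 0.907, 1.60, 0.985 and 1.35 CPM with vehicle, 1.27, 1.26, 0.902 and 1.01 CPM at 10 µM, and 1.32, 1.68, 2.57 and 1.18 CPM at 50 µM. The groups overlapped, although replicate 3 at 50 µM was the highest of all libraries. At this depth the log2 fold change at 50 µM had a wide interval, -0.24 to 1.197 around 0.48 (adjusted p = 0.382). It was -0.13 at 10 µM against vehicle (adjusted p = 0.956) and 0.61 between the doses (adjusted p = 0.229). The antisense gene Gm26542 shares 268 of the 1014 exon bases of *Ltc4s* and had 0 to 11 counts, and whether its reads fall in the *Ltc4s* count is not known, since the sources used here do not give the strand setting.

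*Alox15* (ENSMUSG00000018924, chr11:70344152-70352031, minus strand) showed the largest rise among the members in fold. It had 12.6, 12.5, 8.10 and 7.59 CPM with vehicle, 8.69, 11.6, 10.8 and 8.56 CPM at 10 µM, and 21.9, 29.2, 22.5 and 25.4 CPM at 50 µM. The lowest library at 50 µM lay above the highest of the other 8, which overlapped with each other. From 10.2 ± 2.72 CPM (n = 4) with vehicle the mean rose to 24.7 ± 3.35 CPM (n = 4) at 50 µM, a 2.44-fold difference with an interval of 1.90 to 3.12 (log2 fold change 1.29, SE 0.166, adjusted p = 0.000252). Against 10 µM, with a mean of 9.89 ± 1.50 CPM, it was 2.51-fold (log2 fold change 1.33, interval 1.06 to 1.60, adjusted p = 3.78e-06). At 10 µM against vehicle the log2 fold change was -0.05 (interval -0.45 to 0.35, adjusted p = 0.975).

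**Figure D2:**
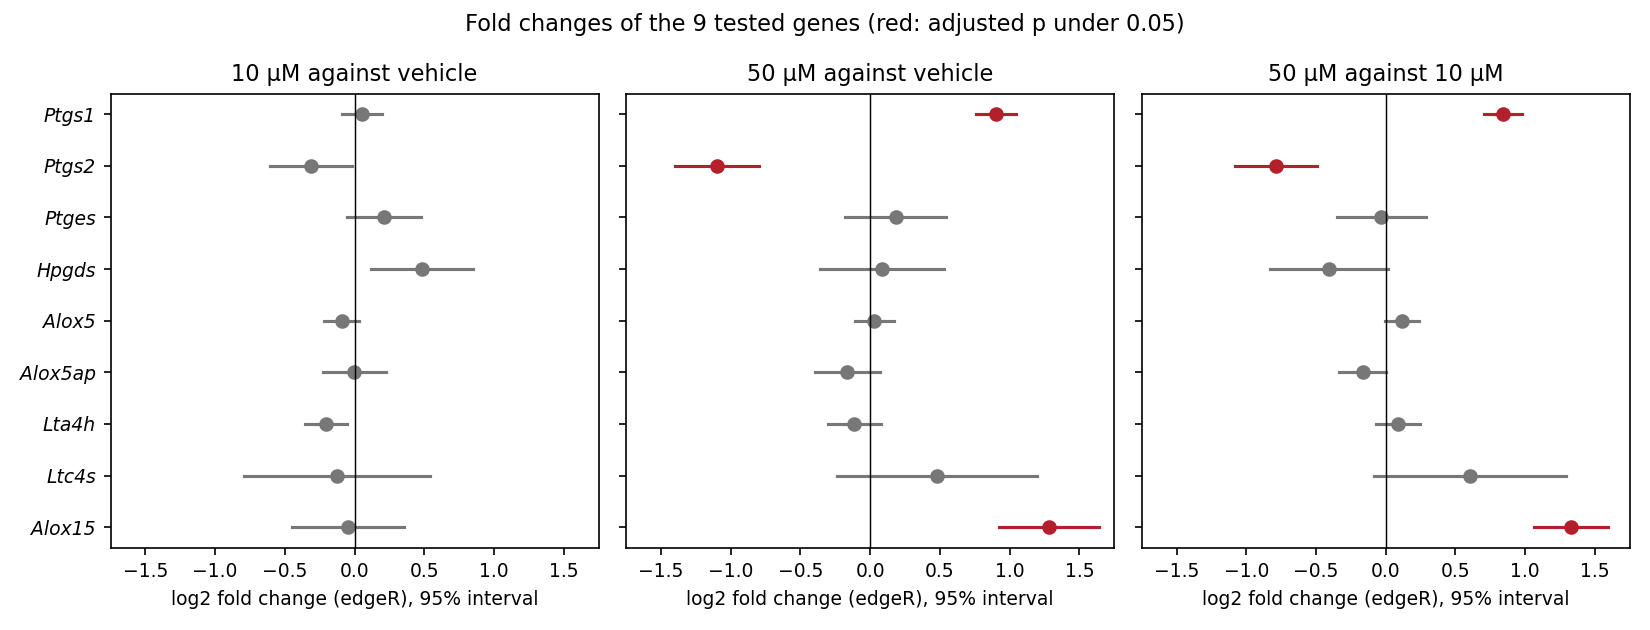
Log2 fold change with its 95% interval of the 9 tested genes in each of the 3 comparisons, in red for genes at an adjusted p under 0.05 (edgeR) and in grey for the rest. *Ptgs1* (0.90) and *Alox15* (1.29) lie to the right of 0 and *Ptgs2* (-1.10) to the left at 50 µM against vehicle, and no gene is red at 10 µM against vehicle.

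Read per length of exon, *Alox5ap*, *Lta4h* and *Alox5* headed the vehicle group with means of 95.1, 81.4 and 74.2 RPKM, each overlapping its neighbour. *Ptgs1* followed at 42.4 RPKM, apart from its neighbours on both sides, and *Alox15* at 4.16 RPKM. *Ptgs2* (2.55 RPKM) and *Ptges* (1.94 RPKM) overlapped, above *Ltc4s* (1.19 RPKM), *Hpgds* (0.428 RPKM) and *Hpgd* (0.182 RPKM). At 10 µM the order differed only in *Ptges* (2.25 RPKM) and *Ptgs2* (2.06 RPKM), whose libraries overlapped. At 50 µM *Ptgs1* stood at 78.8 RPKM and overlapped with *Alox5ap* (84.4 RPKM) and *Alox5* (75.3 RPKM), its neighbours in the order. *Ptgs2*, at 1.18 RPKM, came after *Ptges* (2.197 RPKM) and overlapped with *Ltc4s* (1.66 RPKM).

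Of the 9 tested members, edgeR called 0 at 10 µM against vehicle, where 0.410% of all genes were called in either direction, 0.329% higher and 0.0806% lower. An unadjusted p under 0.05 was reached by 3 members, *Ptgs2*, *Lta4h* and *Hpgds* (33.3%), beside 1308 of all 14894 genes (8.78%), and DESeq2 and limma-voom called 0 members as well. At 50 µM 3 members were called against vehicle, 2 higher and 1 lower, where 13.5% of all genes were called, 7.00% higher and 6.50% lower. The same numbers were called against 10 µM, where the share of all genes was 15.4%, with 7.52% higher and 7.85% lower. As a share, 3 of 9 is 33.3%, above that background, but on 9 genes chosen with results of these data known it is given as a description. The median log2 fold change of the 9 was -0.05, 0.08 and 0.09 in the 3 comparisons, beside -0.01, 0.01 and 0.01 over all genes tested.

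Counted by libraries that do not overlap, 1 member was higher (*Hpgds*) and 1 lower (*Lta4h*) at 10 µM than with vehicle, where 3.57% of all genes were higher without overlap and 2.56% lower. At 50 µM 2 members were higher than with vehicle and 1 lower, against 9.45% and 10.5% of all genes. Against 10 µM 3 were higher, with *Alox5* beside the 2 called genes, and 1 was lower, against 9.43% and 10.9%. The calls of *Ptgs1*, *Ptgs2* and *Alox15* held whichever of the 8 libraries was left out, in both comparisons with 50 µM. The share of all genes called rested on single libraries: at 10 µM, 61 genes were called with all libraries, 4 without replicate 2 of 10 µM and 122 without vehicle replicate 4. At 50 µM against vehicle the 2010 genes became 1247 without vehicle replicate 3 and 1313 without replicate 2 of 50 µM.

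The other pairs of enzymes were compared as ratios per length too. *Alox15* over *Alox5* was 0.0407 to 0.0735 in the vehicle libraries, 0.0485 to 0.0710 at 10 µM and 0.119 to 0.159 at 50 µM. All 4 libraries at 50 µM were above the other 8, with a log2 difference of 1.29 from vehicle and 1.21 from 10 µM (exact permutation p = 0.0286 and adjusted 0.0857 for each). *Ltc4s* over *Lta4h*, which compete for leukotriene A4, ran from 0.0119 to 0.0207 with vehicle and from 0.0135 to 0.0364 at 50 µM, and the groups overlapped (log2 difference 0.57, exact permutation p = 0.143). *Hpgds* over *Ptges*, which compete for prostaglandin H2, overlapped in all 3 groups, with log2 differences of 0.26 at 10 µM and -0.10 at 50 µM from vehicle (exact permutation p = 0.114 and 0.857).

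**Figure D3:**
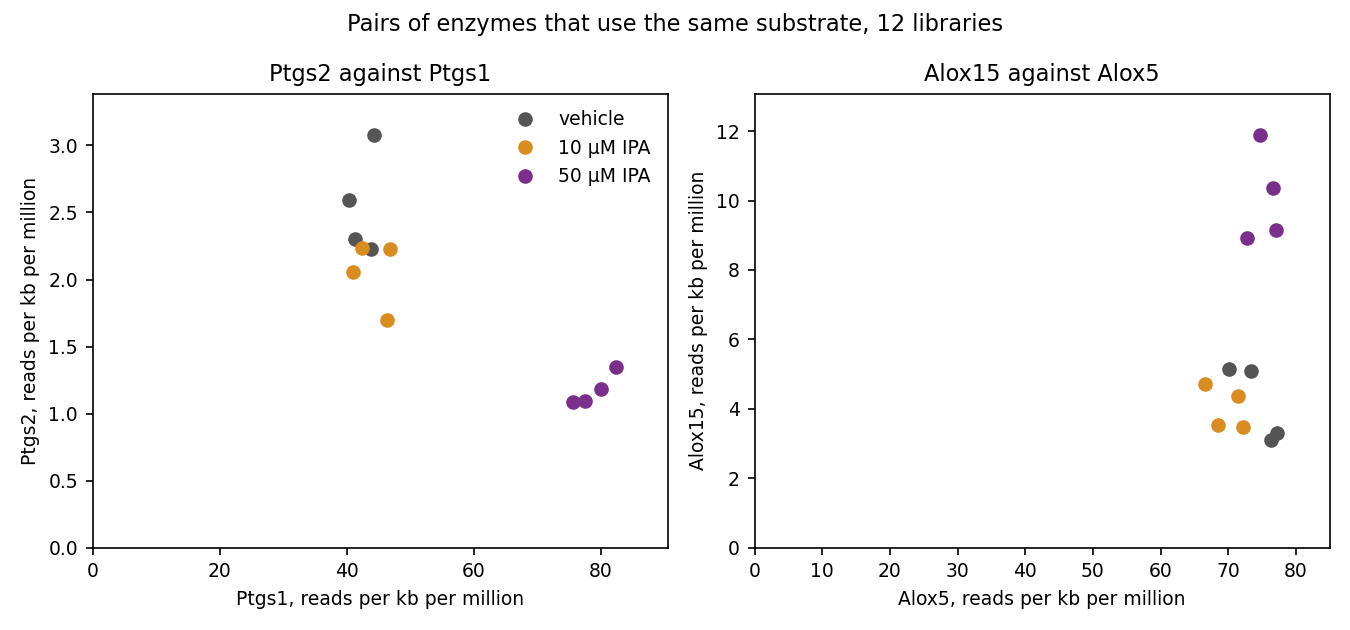
Reads per length (RPKM, linear axes from 0) of *Ptgs2* against *Ptgs1* and of *Alox15* against *Alox5*, pairs of enzymes that use the same substrate, with 1 point per library coloured by group. The 4 libraries at 50 µM lie apart from the other 8 in both panels, towards more *Ptgs1* and less *Ptgs2* in one and towards more *Alox15* at a like level of *Alox5* in the other.

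The remaining genes of the pathway were taken from 5 lists with 69 genes, of which 53 were tested. At 10 µM edgeR called 0 of the 53 against vehicle, with 7 at an unadjusted p under 0.05 (13.2%, beside 8.78% of all genes). DESeq2 called 1, *Pla2g7*, and limma-voom 0. At 50 µM 11 (20.8%) were called against vehicle, 7 higher and 4 lower, beside 13.5% of all genes tested. Against 10 µM 17 (32.1%) were called, 7 higher and 10 lower, beside 15.4% of all genes. Their median log2 fold change was 0.02, 0.03 and -0.03 in the 3 comparisons, beside -0.01, 0.01 and 0.01 over all genes. The 17 became 10 without replicate 2 or replicate 3 of 10 µM and 11 without replicate 2 of 50 µM.

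Among 15 tested genes listed under arachidonate release and reacylation, 3 were called higher and 1 lower at 50 µM than with vehicle (26.7% called, where 13.5% of all genes were). By sign alone, 4 of the 15 were higher and 11 lower. *Pla2g7*, which codes for the secreted hydrolase of platelet-activating factor, had 213 to 252 CPM with vehicle, 276 to 319 CPM at 10 µM and 377 to 423 CPM at 50 µM, so that no group overlapped with another. It rose by a log2 fold change of 0.77 at 50 µM against vehicle (interval 0.61 to 0.94, adjusted p = 3.32e-05) and 0.43 against 10 µM (adjusted p = 0.000363). At 10 µM against vehicle it was 0.33, with an adjusted p of 0.0939 by edgeR and 0.00456 by DESeq2. *Mgll*, whose enzyme frees arachidonic acid from 2-arachidonoylglycerol, rose from 62.0 ± 5.78 to 89.5 ± 7.22 CPM (log2 fold change of 0.54, adjusted p = 0.00109). *Acsl4*, whose product couples arachidonic acid to coenzyme A, rose from 158 ± 6.18 to 200 ± 6.56 CPM (log2 fold change of 0.35, adjusted p = 0.00384). *Daglb*, which codes for a lipase that makes 2-arachidonoylglycerol, fell from 33.5 ± 2.41 to 23.0 ± 3.42 CPM (log2 fold change of -0.53, adjusted p = 0.00643).

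In the same list, against 10 µM, 3 genes were higher and 4 lower at 50 µM (46.7% called, where 15.4% of all genes were). *Pla2g4a* codes for the cytosolic phospholipase A2 that feeds the eicosanoid enzymes. It had 84.6 ± 2.55 CPM at 10 µM and 66.4 ± 2.40 CPM at 50 µM (log2 fold change -0.35, adjusted p = 0.00149), and 77.8 ± 6.65 CPM with vehicle, from which 50 µM differed by -0.22 (adjusted p = 0.0865 by edgeR, 0.0476 by DESeq2 and 0.0314 by edgeR with all 12 libraries in the fit). *Daglb* (-0.72), *Pla2g15*, a lysosomal phospholipase (-0.33), and *Lpcat3*, an acyltransferase of phospholipids (-0.19), were also lower on the log2 scale. *Pla2g15* passed in 6 of 8 fits without 1 library, and not without replicate 2 of 10 µM or replicate 2 of 50 µM (highest adjusted p = 0.0583). *Lpcat3*, and *Acsl4* among the higher genes, each passed in 1 of the 8, *Lpcat3* without replicate 4 of 50 µM and *Acsl4* without replicate 3 of 50 µM (highest adjusted p = 0.120 and 0.117).

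Of 12 tested prostanoid synthases, reductases and transporters, 2 were higher and 1 lower at 50 µM than with vehicle (25.0% called, against 13.5% of all genes). *Akr1c18*, whose enzyme reduces progesterone and prostaglandins, rose from 4.80 ± 0.801 to 7.97 ± 1.02 CPM (log2 fold change of 0.74, adjusted p = 0.00782). *Zadh2*, which codes for a prostaglandin reductase, rose from 50.6 ± 4.12 to 66.5 ± 2.81 CPM (log2 fold change of 0.40, adjusted p = 0.00489). *Abcc4* codes for a pump that exports prostaglandin E2 from cells. It had 75.7 to 78.0 CPM with vehicle, 64.3 to 73.8 CPM at 10 µM and 41.0 to 54.3 CPM at 50 µM, and no group overlapped with another. It fell by 0.69 on the log2 scale at 50 µM against vehicle (adjusted p = 0.000175) and by 0.53 against 10 µM (adjusted p = 0.000467). At 10 µM against vehicle it was -0.16 (adjusted p = 0.442). Between the doses, *Zadh2* was the 1 gene of this list that was higher (log2 fold change of 0.36, adjusted p = 0.00383) and *Abcc4* the 1 that was lower (16.7% called, against 15.4% of all genes).

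Of 6 tested prostanoid receptors, 1 was higher and 1 lower at 50 µM than with vehicle, and likewise against 10 µM (33.3% called in each, against 13.5% and 15.4% of all genes). *Ptgir*, the prostacyclin receptor, rose from 64.2 ± 1.99 to 81.0 ± 9.73 CPM (log2 fold change of 0.34, adjusted p = 0.0196), but passed in 5 of 8 fits without 1 library, and not without vehicle replicate 1 or replicate 1 or 4 of 50 µM (highest adjusted p = 0.0640). Against 10 µM its log2 fold change was 0.32 (adjusted p = 0.0186), again in 5 of 8 fits, and not without replicate 2 or 3 of 10 µM or replicate 4 of 50 µM (highest adjusted p = 0.0724). *Ptger3*, a receptor of prostaglandin E2, had 11.8 to 13.8 CPM with vehicle, 8.08 to 12.1 CPM at 10 µM and 7.04 to 8.77 CPM at 50 µM, and fell by 0.65 on the log2 scale at 50 µM (adjusted p = 0.00212). *Ptger4*, another receptor of prostaglandin E2, was called only between the doses (-0.26, adjusted p = 0.0306), and passed in 4 of 8 fits without 1 library, not without replicate 2 or 3 of 10 µM or replicate 1 or 2 of 50 µM (highest adjusted p = 0.110).

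Of 14 other tested genes of lipoxygenases and leukotriene enzymes, 1 was higher and 1 lower at 50 µM than with vehicle (14.3% called, near the 13.5% of all genes). *Gpx4*, whose enzyme reduces lipid hydroperoxides, had 132 to 184 CPM with vehicle and 186 to 246 CPM at 50 µM (log2 fold change 0.43, adjusted p = 0.0250), but passed in 3 of 8 fits without 1 library, and not without vehicle replicate 1, 2 or 3 or replicate 2 or 3 of 50 µM (highest adjusted p = 0.0800). *Ggt1*, a transferase that turns leukotriene C4 into leukotriene D4, fell from 8.94 ± 0.746 to 5.74 ± 0.267 CPM (-0.63, adjusted p = 0.00462). Against 10 µM, *Mgst2* (0.31) and *Gpx4* (0.35) were higher, and *Ggt1* (-0.52), *Mgst3* (-0.57) and *Cyp4f18* (-0.23) were lower on the log2 scale (35.7% called, against 15.4% of all genes). *Mgst2* and *Mgst3* code for membrane transferases of glutathione, and *Cyp4f18* for an oxidase of leukotriene B4. Of these 5, *Ggt1* alone stayed called whichever library was left out, and of the 8 fits *Mgst3* passed in 5, *Gpx4* in 3, *Mgst2* in 2 and *Cyp4f18* in 1. Their highest adjusted p without 1 library was 0.0787 for *Mgst3*, 0.0963 for *Gpx4*, 0.129 for *Mgst2* and 0.136 for *Cyp4f18*.

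None of 6 tested leukotriene and lipoxin receptors was called at 50 µM against vehicle, and 1 was lower against 10 µM (16.7% called, near the 15.4% of all genes). This was *Cysltr1*, a receptor of cysteinyl leukotrienes, with 36.5 to 45.4 CPM with vehicle, 46.6 to 57.3 CPM at 10 µM and 31.8 to 39.9 CPM at 50 µM. Its level at 50 µM was lower by 0.51 on the log2 scale than at 10 µM (adjusted p = 0.000955). Against vehicle the log2 fold change was 0.30 at 10 µM (adjusted p = 0.255) and -0.20 at 50 µM (adjusted p = 0.190).

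**Figure D4:**
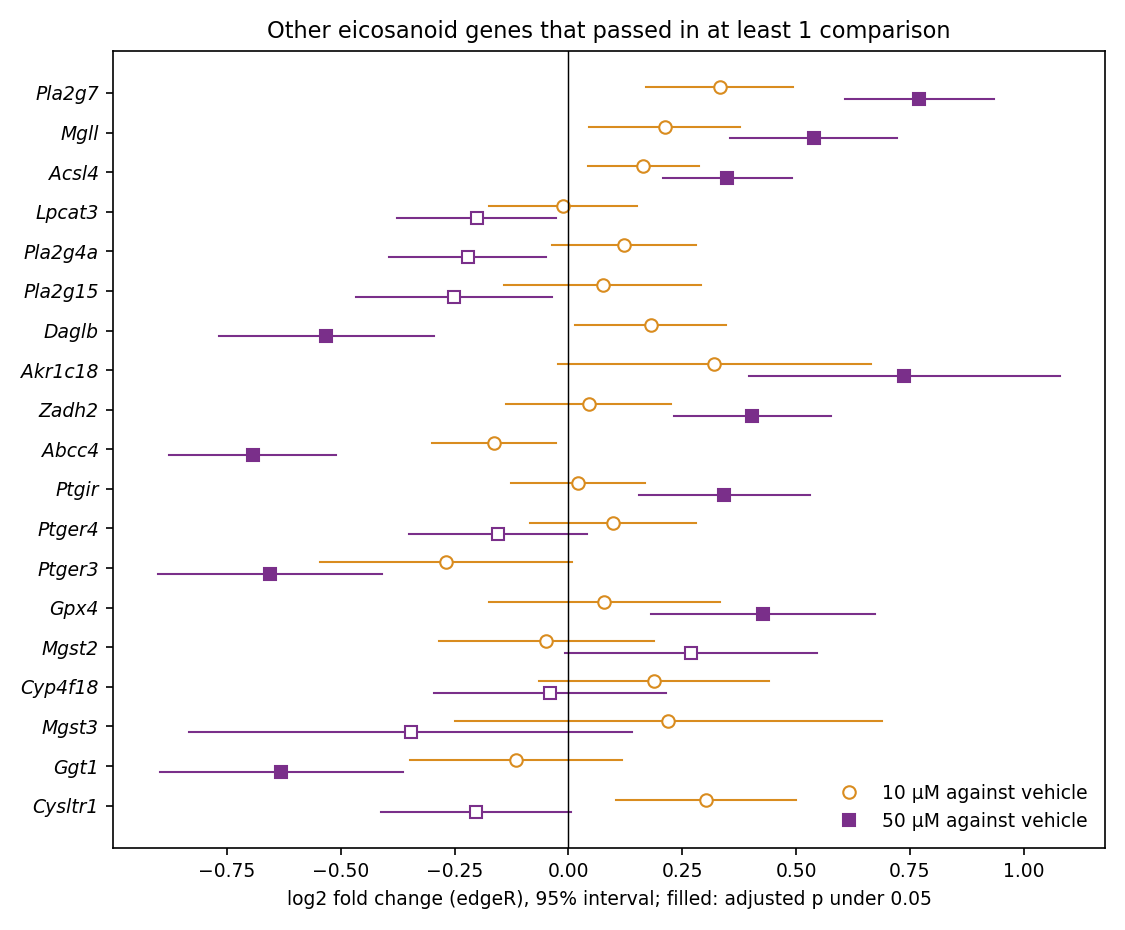
Log2 fold change with its 95% interval of the 19 other pathway genes that passed the test in at least 1 of the 3 comparisons, at 10 µM (circles) and at 50 µM (squares) against vehicle, grouped by list, with filled symbols at an adjusted p under 0.05 (edgeR). At 50 µM against vehicle *Pla2g7* (0.77) lies farthest to the right, and *Abcc4* (-0.69), *Ptger3* (-0.65) and *Ggt1* (-0.63) lie to the left.

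The genes are known from cell types whose markers moved between the same groups, and in bulk samples fewer cells of a type and less RNA per cell cannot be told apart. The summed level of 7 megakaryocyte and platelet markers, cells known to hold *Ptgs1*, was 273 to 316 CPM with vehicle, 270 to 334 CPM at 10 µM and 346 to 398 CPM at 50 µM. Of its 6 tested genes 2 were higher at 50 µM and 0 lower, against vehicle as against 10 µM, where 7.00% and 7.52% of all genes were higher, and *Gp1bb* was at 0 counts in every library. For 7 eosinophil markers the sum was 1105 to 1352 CPM with vehicle, 928 to 1170 CPM at 10 µM and 849 to 1131 CPM at 50 µM, with 1 of 7 higher and 2 lower at 50 µM, against vehicle as against 10 µM. For 11 mast cell and basophil markers it was 429 to 516 CPM, 347 to 461 CPM and 469 to 577 CPM, with 1 of 8 tested genes higher and 1 lower at 50 µM than with vehicle, 3 higher and 0 lower than at 10 µM, and the mast cell proteases *Mcpt4* (0 counts), *Cma1* (0 to 3 counts) and *Tpsb2* (0 to 13 counts) were at or near 0.

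Neutrophil markers, 10 genes, summed to 21388 to 29904 CPM with vehicle, 20206 to 23194 CPM at 10 µM and 15561 to 21226 CPM at 50 µM, and 6 of the 10 were lower at 50 µM than with vehicle and 5 than at 10 µM, where 6.50% and 7.85% of all genes were lower. For 4 monocyte markers the sum was 1238 to 1711 CPM, 1623 to 1788 CPM and 819 to 1055 CPM, with 3 lower at 50 µM than with vehicle and 4 than at 10 µM. For 8 macrophage markers it was 1704 to 1898 CPM, 2031 to 2233 CPM and 1734 to 1851 CPM, with 3 higher and 0 lower at 10 µM than with vehicle (0.329% and 0.0806% of all genes), 2 higher and 2 lower at 50 µM than with vehicle, and 1 higher and 5 lower than at 10 µM. For 6 dendritic cell markers it was 83.1 to 97.0 CPM, 86.9 to 96.5 CPM and 102 to 131 CPM, with 2 higher at 50 µM than with vehicle and 1 than at 10 µM. The part of any of these lists in the values of the 10 genes was not tested.

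The genes whose log2 CPM over the 12 libraries was most like that of a called member, out of 10193 that averaged 5 CPM or more, are given as a description. For *Ptgs1* they were *Cyp1b1*, a cytochrome P450 (Pearson r = 0.996), *Socs2*, an inhibitor of cytokine signalling (0.993), and *Serpinb6b*, a protease inhibitor (0.991). *Cyp1b1* had a mean of 12.0 CPM with vehicle, 12.6 CPM at 10 µM and 124 CPM at 50 µM. For *Alox15* they were *Irf4*, a transcription factor (0.978), *Treml2*, a receptor of myeloid cells (0.969), and B430306N03Rik (0.968). *Ptgs2* was most like *Fancg*, a DNA repair gene (0.949), *Ripor2* (0.946) and the noncoding RNA *Tug1* (0.946). The libraries at 50 µM stand apart from the other 8 for *Ptgs1*, *Ptgs2* and *Alox15*, so these values mostly compare the groups. With each group's mean taken off, they were 0.884 to 0.930 for the 3 genes like *Ptgs1*, 0.750 to 0.885 for those like *Alox15* and 0.473 to 0.749 for those like *Ptgs2*. The genes were picked by their r over the same 12 libraries, so the values within groups are no independent check.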

How the data were processed

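The authors deposited raw read counts per gene for 12 libraries of a stranded mRNA kit. They trimmed reads with Atropos, aligned them to mm10 and assigned them to genes of Ensembl GRCm38.92, with HISAT2 2.2.1 and featureCounts 2.0.1 in the submitters' processing notes. The notes also name R 4.3.0 and DESeq2 1.40.2. The strand setting of the counting is not given in the sources used here. Groups came from the treatment labels. Replicate 3 at 10 µM carries the title of replicate 2 and was identified by its library name. No column was left unused (0).

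A gene was tested if 2 or more of the 12 libraries exceeded 0.5 CPM (14894 genes). Each pair of groups was fitted on its 8 libraries with edgeR 4.0.16 (TMM, quasi-likelihood F test) under R 4.3.3, and p-values were adjusted over every gene tested by the Benjamini-Hochberg method. Where p-values rest on libraries not known to be separate cultures, they measure the spread between these libraries. Ratios per length used counts plus 0.5 and exact permutation tests (70 splits). Alternatives were DESeq2 1.42.0, limma-voom (limma 3.58.1), DESeq2's size factors, no filter, a minimum of 10 counts in each library, all 12 libraries in 1 fit, a replicate block, and leaving out each library. Scripts were tested on simulated data. Exon lengths and positions are those of GENCODE M21 (GRCm38), and promoters those of RefSeq (GRCm38.p6).

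The members, lists and tests were chosen with earlier results of these data known. Named are all 10 members, every other pathway gene with an adjusted p under 0.05 in any comparison, some that passed only under an alternative, and for each called member the 3 genes most correlated with it. Marker genes came from the marker lists. Plots were drawn with matplotlib 3.10.9.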

Additional observations from a re-analysis of the deposited data

Results flagged for a closer look

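Within each group of 4, the gap between the library farthest from the rest and its nearest neighbour was divided by the range of all 4 (Dixon's test, critical value 0.829). Chance alone marks about 1 in 20 groups, and 3 of 42 were marked. The level of *Lta4h*, the hydrolase that makes leukotriene B4, was 533 CPM in replicate 4 at 50 µM and 427 to 436 CPM in the other 3 libraries. *Hpgd*, the dehydrogenase that inactivates prostaglandins, had 0.378 CPM in replicate 4 at 50 µM and 0.146 CPM in each of the others, from 9 counts against 3, 4 and 3. The log2 ratio of *Hpgds* over *Ptges* was -1.85 in vehicle replicate 3 and between -2.31 and -2.24 in the other vehicle libraries.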

How the results depend on the processing

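The number of members called was 0, 3 and 3 under all alternatives run, and the calls of *Ptgs1*, *Ptgs2* and *Alox15* kept their direction in each. Of 405 refitted log2 fold changes of members, 388 kept direction and side of the threshold, and 17 of uncalled members changed sign. For *Alox5ap* at 10 µM against vehicle these were 0.0081 with limma-voom, 0.0015 with at least 10 counts in every library and 0.0074 with the replicate block. Without 1 library each, log2 fold changes ran from -0.061 to 0.11 for *Alox5ap*, -0.17 to 0.074 for *Alox15* and -0.24 to 0.033 for *Ltc4s* at 10 µM against vehicle, from -0.0064 to 0.049 for *Alox5* and -0.0047 to 0.19 for *Hpgds* at 50 µM against vehicle, and from -0.19 to 0.055 for *Ptges* between the doses. The log2 ratio of *Hpgds* over *Ptges* at 50 µM against vehicle ran from -0.27 to 0.16, and that of *Alox15* over *Alox5* at 10 µM from -0.066 to 0.22. Some values at 50 µM against vehicle moved without a change of sign. The log2 fold change ran from 0.022 to 0.26 for *Ptges* and from 0.21 to 0.64 for *Ltc4s*, and the log2 ratio of *Ltc4s* over *Lta4h* from 0.32 to 0.80. The count of all genes called at 10 µM, 61, became 250 with DESeq2, 150 with no filter, 118 with all 12 libraries and 3 with the replicate block, and 4 to 122 without 1 library. At 50 µM against vehicle it was 1247 to 2689 without 1 library. Of the other pathway genes, 1 (*Pla2g7*) was called at 10 µM with DESeq2, no filter or all 12 libraries, and between the doses 17 became 23 with DESeq2, 12 with all 12 libraries, 14 with the replicate block and 10 to 15 without 1 library. The replicate block lost *Acsl4*, *Lpcat3* and *Cyp4f18* there, the fit of all 12 libraries *Mgst2*, *Mgst3*, *Gpx4*, *Lpcat3* and *Cyp4f18*, the fit with no filter *Acsl4*, *Lpcat3* and *Cyp4f18*, and limma-voom *Mgst2*. DESeq2 added *Pla2g12a*, *Ptger3*, *Fam213b*, *Akr1c18*, *Pla2g6* and *Abcc1* between the doses, no filter *Ptgds*, *Fam213b* and *Pla2g6*, and limma-voom *Pla2g4f*. *Ptgds* had too few reads for the main filter. With no filter its log2 fold change was 3.54 between the doses (adjusted p = 0.00951 by edgeR) and 3.28 at 50 µM against vehicle (adjusted p = 0.0362). At 50 µM against vehicle the count of 11 became 13 with DESeq2 and 9 to 13 without 1 library. The deviations of libraries with the same replicate number had correlations of -0.55 to 0.29. With 4 libraries per group, these cannot show whether libraries of different groups were paired. The paper compared cell measurements of such cultures by repeated-measures ANOVA. The replicate block called 1830 genes at 50 µM against vehicle and 2200 between the doses. The causes of these changes were not tested. Counts were low for *Hpgd* (2 to 12 per library), *Ltc4s* (22 to 53) and *Hpgds* (53 to 110).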
